A study of Rattus norvegicus with 30 samples.

Results

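GSK2894631A is an orally delivered inhibitor of hematopoietic prostaglandin D synthase (HPGDS), and the values below describe its 3 doses in rat plantaris tendons collected 21 days after surgical repair. Of the 30 tendons in the series, 15 were taken at 21 days, and they were chosen by their label alone: 5 from rats given 0 mg/kg (vehicle), 5 from rats given 2 mg/kg and 5 from rats given 6 mg/kg. All were adult male Sprague Dawley rats, purchased at 3 months of age, whose plantaris tendon was cut through its full thickness and immediately sutured, and all were gavaged repeatedly every day. The vehicle group therefore carried the same injury, suture and gavage as the dosed groups, and no drug-treated, uninjured tendon was part of the comparison. RNA came from the whole tendon cut between the muscle and the heel bone, so each value is an average over scar, tendon, vessels, fat and any muscle left on the tissue. In such bulk tissue, fewer cells of a type and less RNA per cell cannot be told apart. The question was whether either dose changed the transcriptome of the healing tendon relative to vehicle, and what size of change 5 tendons a group could exclude.

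PGD2 is made from arachidonic acid, which cyclooxygenases turn into the unstable intermediate PGH2 and terminal synthases turn into the individual prostanoids. HPGDS, the enzyme that the drug blocks, is the PGD2 synthase of mast cells, macrophages and other blood-derived cells. The drug acts on the enzyme's activity, so the level of its transcript does not show whether it was inhibited. In a healing tendon, fibroblasts lay down collagen-rich scar while macrophages and new vessels occupy the wound, and cells expressing scleraxis and tenomodulin mark the tendon lineage. The second PGD2 synthase and the PGD2 receptors were not analysed here.

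The libraries held 23801990 to 46792121 counts, and levels are given as CPM (counts scaled to a common library total) scaled by TMM, a factor for each library that ranged from 0.927 to 1.04. A count of 3 corresponded to 0.0636 to 0.131 CPM. In all 11987 genes reached a mean of 3 CPM in at least 1 of the 3 dose groups and were tested, 11440 of which did so in every group, and 1137 were left out. The tissue carried the defining tendon genes in every library: Col1a1, a chain of type I collagen, ranged from 20259 to 40821 CPM, and tenomodulin (Tnmd) from 68.9 to 322 CPM.

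The largest component of difference among the 15 tendons followed the share of skeletal muscle transcripts. The summed share of 29 muscle fibre genes (myosins, troponins, creatine kinase and similar) was 6.31, 0.112, 2.58, 2.92 and 9.15% of counts at 0 mg/kg. In the 2 mg/kg tendons the share was 3.74, 1.95, 1.46, 1.55 and 3.29%. In the 6 mg/kg tendons it was 8.69, 11, 0.41, 5.97 and 0.48%. The 3 groups overlapped throughout, with the 2 mg/kg tendons in a narrow range and a single vehicle tendon, replicate 2, almost free of these transcripts. The first principal component of all genes held 51.0% of the variance and followed the log2 muscle share (Pearson's r = 0.97, Spearman's rho = 0.96, n = 15 tendons, permutation p = 1e-05 for both, the smallest that 100000 resamples can give, and r = 0.96 without the 2 tendons farthest from the median). The muscle genes were themselves among the genes of that component, with 9 among its 30 highest loadings, and its low end held other genes, such as Cryaa, Acod1 and Cd5l. The summed macrophage and monocyte share was 1.41% in the tendon of lowest score (vehicle replicate 2) and 0.331% in that of highest score (6 mg/kg replicate 2). It was also low, 0.328%, in 2 mg/kg replicate 3, whose score was -10.3. Muscle and immune content along this component were not tested apart. Dose accounted for 4.07% of its variance. Vehicle replicate 2 stood apart at a score of -85.1, where the other 4 vehicle tendons lay between 6.06 and 36.9.

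**Figure D1:**
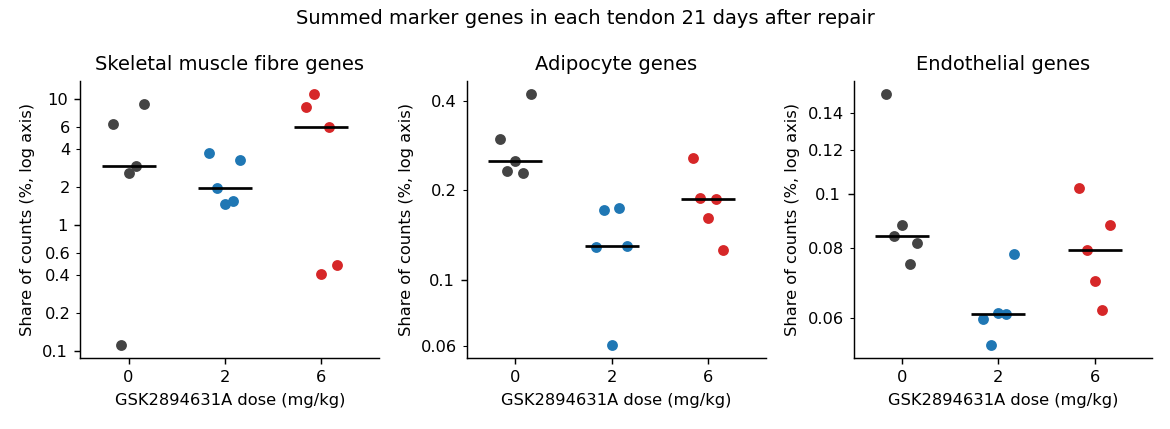
Share of all counts (percent, log axes) taken by the summed skeletal muscle, adipocyte and endothelial marker genes in each of the 15 tendons by dose; points are tendons and bars are group medians. Muscle shares overlap widely, while the adipocyte shares of the 2 mg/kg tendons (0.0603 to 0.175%) all sit below those of the vehicle tendons (0.228 to 0.424%).

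In the main test, edgeR's, no gene passed against vehicle at either dose. At an adjusted p under 0.05 (edgeR's quasi-likelihood test, Benjamini-Hochberg over 11987 genes), 0 genes (0%) were called for 2 against 0 mg/kg, 0 (0%) for 6 against 0 mg/kg and 0 (0%) for the linear trend with dose. The smallest adjusted p was 0.0739 for 2 against 0 mg/kg (Jund), 0.541 for 6 against 0 mg/kg (Cmc1) and 0.351 for the trend (Cmc1). Below, a gene is called nominally different when its unadjusted p was under 0.05. Shares of all genes set beside list counts are those of the main fit. List counts from refits, with a tendon left out or a covariate added, have no such baseline here. Before adjustment 1165 genes (9.72%) were nominally different at 2 mg/kg, 489 higher (4.08%) and 676 lower (5.64%). At 6 mg/kg there were 930 (7.76%), 515 higher (4.30%) and 415 lower (3.46%), and over the trend 1101 (9.18%), 624 rising with dose (5.21%) and 477 falling with it (3.98%). Scaling by library size alone turned the split at 6 mg/kg to 176 higher and 700 lower, so that neither direction can be read from it. DESeq2, run as an alternative on the same counts, called 59 genes at 2 mg/kg, 27 at 6 mg/kg and 49 for the trend. All 59 and all 27 were nominally different in the edgeR test too, with a median absolute log2 fold change of 0.65 and 0.36. Below, called and adjusted p refer to edgeR unless DESeq2 is named.

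The single gene that passed in edgeR was Jund, which was called across the 3 doses and between the 2 doses of drug and missed the threshold against vehicle. Jund encodes JunD, a subunit of the AP-1 transcription factor (chromosome 16, 1679 bases wide in the rn6 annotation). It measured 271, 242, 314, 268 and 257 CPM at 0 mg/kg, 422, 374, 464, 544 and 430 CPM at 2 mg/kg, and 247, 258, 248, 297 and 265 CPM at 6 mg/kg. The 5 tendons at 2 mg/kg were all above the other 10, and the vehicle and 6 mg/kg tendons overlapped. Across the 3 doses Jund was the 1 gene called (0.00834% of genes, adjusted p = 0.0317), with 1578 genes (13.2%) nominally different. That count fell to 0 with all 30 tendons in the fit (smallest adjusted p = 0.131), with a replicate block (0.103), and without any one of 10 tendons (0.0586 to 0.227). It was also the 1 gene called for 6 against 2 mg/kg (0.00834%), a comparison added after the data were seen, in which it was lower at 6 mg/kg by a log2 fold change of -0.77 ± 0.10 (SE, adjusted p = 0.0402). Against vehicle it was 1.65-fold higher at 2 mg/kg (95% interval 1.42 to 1.93, adjusted p = 0.0739 in edgeR and 4.77e-08 in DESeq2, and called by edgeR without vehicle replicate 3 or 2 mg/kg replicate 2) and 0.972-fold at 6 mg/kg (0.834 to 1.13). The call between the doses was lost without any one of the same 10 tendons, with adjusted p from 0.0609 to 0.202. They were vehicle replicates 1 and 4, 2 mg/kg replicates 1, 3, 4 and 5, and 6 mg/kg replicates 1, 2, 3 and 5. In those refits the log2 fold change stayed between -0.80 and -0.68. In the 12 tendons collected at 7 days, Jund did not follow this pattern, with log2 fold changes of -0.15 ± 0.18 (2 mg/kg) and -0.55 ± 0.20 (6 mg/kg, adjusted p = 0.44).

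The 2 doses differed from each other in more genes than either did from vehicle. For 6 against 2 mg/kg 1919 genes (16%) were nominally different, 1049 higher (8.75%) and 870 lower (7.26%) at the higher dose, and the CPM of the 2 groups did not overlap for 560 genes (4.67%). Without overlap were 213 genes (1.78%) for 2 against 0 mg/kg and 131 (1.09%) for 6 against 0 mg/kg. At an adjusted p under 0.1, 14 genes stood between the doses, 12 of them lower at 6 mg/kg. Besides Jund these were headed by Tmem259 (-0.39 ± 0.06), Ercc6l2, a DNA repair helicase (0.31 ± 0.05), and the transcription factors Foxp4 (-0.58 ± 0.10) and Maz (-0.53 ± 0.09), all at an adjusted p of 0.0926 in edgeR. The 12 were picked for being lower at 6 than at 2 mg/kg, and their estimates lay above vehicle at 2 mg/kg and below it at 6 mg/kg. For 2 of them, Tmem259 and Cactin, DESeq2 called the linear trend with dose (adjusted p = 0.00252 each). DESeq2 called 314 genes between the doses, 211 of them lower at 6 mg/kg. With the log2 muscle share as a covariate, edgeR called 94, 45 higher and 49 lower.

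The precision of 5 tendons a group was set against the spread between tendons, with a common biological coefficient of variation of 0.297. The 95% interval reached a median of 0.30 on the log2 scale to either side of the estimate for 2 against 0 mg/kg, a 1.24-fold difference. A 2-fold difference in either direction lay outside the interval for 10309 genes (86.0%) at 2 mg/kg and 10430 genes (87.0%) at 6 mg/kg. A 1.5-fold difference lay outside it for 7974 genes (66.5%) and 8078 genes (67.4%), and a 4-fold difference for 95.9% and 96.5%. For the median gene the farthest difference still inside the interval was 1.36-fold at either dose. A test of equivalence within 2-fold, adjusted over all genes, passed for 10575 genes at 2 mg/kg and 10686 at 6 mg/kg. Precision fell with expression: among the 2547 genes under 10 CPM a 2-fold difference was excluded for 70.7% at 2 mg/kg and 74.3% at 6 mg/kg, against 91.9% and 92.1% of the 4041 genes between 30 and 100 CPM. A gene of median precision would have needed a 2.04-fold difference to be the only call.

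**Figure D2:**
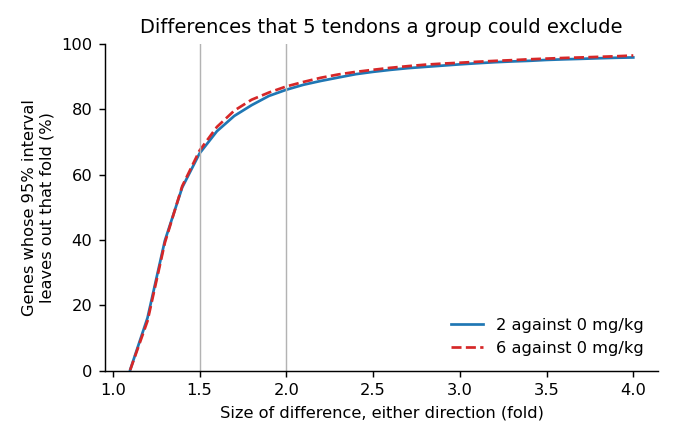
Percent of the 11987 genes (vertical axis) whose 95% interval leaves out a difference of the given fold in either direction (horizontal axis), for 2 against 0 mg/kg (solid) and 6 against 0 mg/kg (dashed). Both curves pass 66.5 to 67.4% at 1.5-fold and 86.0 to 87.0% at 2-fold, marked by grey lines.

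Hpgds itself, the gene of the targeted enzyme (chromosome 4), was near the limit of testing and did not differ with dose. It had 39 to 131 counts a library. Its levels were 2.07, 1.35, 2.31, 4.58 and 1.97 CPM at 0 mg/kg, 3.38, 1.13, 1.52, 1.26 and 3.06 CPM at 2 mg/kg, and 2.97, 3.90, 3.14, 2.12 and 2.28 CPM at 6 mg/kg. The 3 groups overlapped, with means of 2.46 ± 1.24, 2.07 ± 1.06 and 2.88 ± 0.717 CPM (SD, n = 5 each). These means were below the filter, so Hpgds was fitted without one: its level at 2 mg/kg was between 0.489- and 1.47-fold of vehicle, and at 6 mg/kg between 0.674- and 2.03-fold (95% intervals). Exact two-sided permutation tests of its CPM, in which 252 splits of 10 tendons allow a smallest p of 0.00794, gave p = 0.643 at 2 mg/kg and p = 0.484 at 6 mg/kg (both 0.643 after adjustment for the 2 tests). The receptor genes Ptger3 (PGE2) and Tbxa2r (thromboxane) were also below the filter, at 0.186 to 3.42 and 0.675 to 2.22 CPM. Ptger3, fitted the same way, was nominally lower at 2 mg/kg (0.135- to 0.984-fold, adjusted p = 0.511), with overlapping tendons.

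The genes of prostanoid synthesis, breakdown and transport were called at neither dose: 0 of the 15 tested, with a median log2 fold change of -0.10 at 2 mg/kg and -0.06 at 6 mg/kg, where the median of all genes was -0.02 and 0.00. A 2-fold difference was excluded for 12 of the 15 at each dose. Ptgs1, the constitutive cyclooxygenase, measured 58.4, 34.9, 41.8, 41.0 and 46.8 CPM at 0 mg/kg, 34.3, 32.5, 67.7, 33.8 and 30.5 CPM at 2 mg/kg, and 49.9, 28.5, 36.5, 36.8 and 41.8 CPM at 6 mg/kg. At 2 mg/kg replicate 3 was high and the other 4 tendons lay below the lowest vehicle tendon, while the 6 mg/kg tendons overlapped vehicle, and the level at 6 mg/kg was 0.868-fold of vehicle (0.625 to 1.20). Ptgs2, the inducible cyclooxygenase, measured 13.8, 11.6, 5.22, 4.04 and 14.3 CPM at 0 mg/kg, 8.05, 8.52, 14.9, 10.2 and 6.86 CPM at 2 mg/kg, and 7.30, 8.45, 5.38, 6.78 and 7.35 CPM at 6 mg/kg. Its vehicle tendons were the most scattered, and an interval of 0.445- to 1.17-fold at 6 mg/kg left a 2-fold fall possible. Ptges, the inducible PGE2 synthase, was at 20.0 ± 4.71, 18.9 ± 3.16 and 21.8 ± 3.47 CPM (SD, n = 5 each), and both intervals left out 1.5-fold. Ptges3, a co-chaperone that also makes PGE2, lay within 0.938- to 1.12-fold of vehicle at 2 mg/kg.

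Of the 20 genes of both prostanoid lists, 1 was nominally lower at 2 mg/kg, where 5.64% of all genes were, and 1 at 6 mg/kg, where 3.46% were. Slco2a1, the transporter that takes prostaglandins out of the extracellular space, measured 53.3, 37.2, 52.2, 27.6 and 18.6 CPM at 0 mg/kg, 18.2, 19.1, 20.1, 13.3 and 25 CPM at 2 mg/kg, and 38.9, 22.5, 23.0, 19.4 and 35.0 CPM at 6 mg/kg. Of the 5 tendons at 2 mg/kg, 2 lay below the vehicle range and the groups overlapped, at 0.506-fold (0.333 to 0.768) with an adjusted p of 0.334. In the separate tendons at 7 days the log2 fold change of Slco2a1 under the 2 mg/kg dose was -0.87 ± 0.23 (adjusted p = 0.0656). Of the 5 prostanoid receptors tested, 4 left out a 2-fold difference at each dose. Ptgir, the prostacyclin receptor, measured 14.6, 16.6, 11.5, 13.7 and 13.8 CPM at 0 mg/kg, 10.3, 10.8, 12.2, 10.2 and 14.2 CPM at 2 mg/kg, and 9.66, 8.90, 8.18, 9.20 and 12.5 CPM at 6 mg/kg. It was the 1 receptor nominally different in the trend, with 0.690-fold of the vehicle level at 6 mg/kg (0.565 to 0.844, adjusted p = 0.592), and its trend missed the threshold in edgeR (adjusted p = 0.439) and passed it in DESeq2 (0.0456). At the higher dose 1 of 5 tendons reached into the vehicle range. Ptger2, a PGE2 receptor, ranged from 1.97 to 20.6 CPM among the 15 tendons, and its interval of 0.385- to 2.57-fold at 2 mg/kg excluded little.

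**Figure D3:**
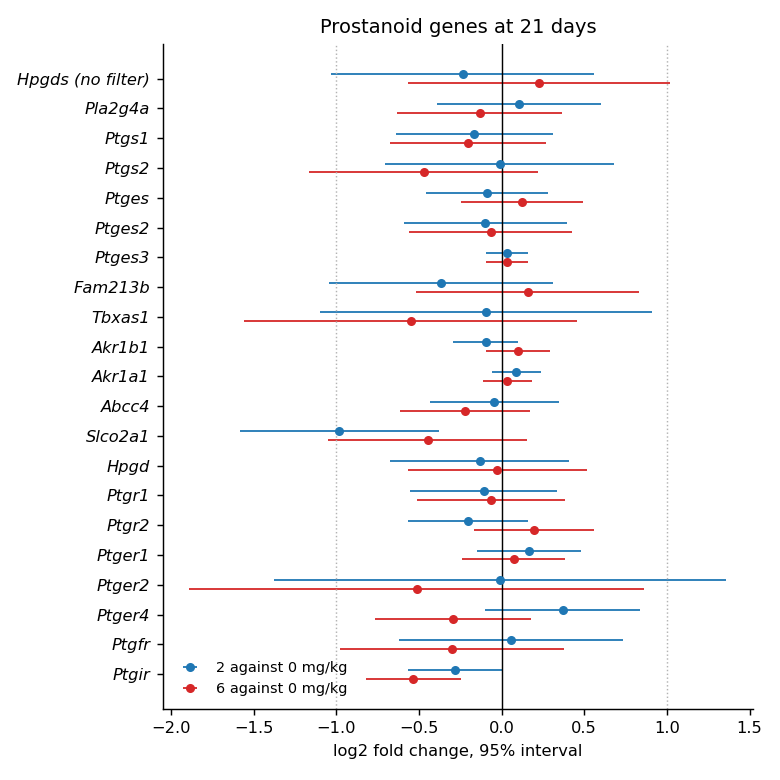
Log2 fold change (horizontal axis) with its 95% interval for Hpgds, fitted without the filter, and the 20 prostanoid genes that passed it, at 2 mg/kg and 6 mg/kg against vehicle; dotted lines mark 2-fold. Slco2a1 at 2 mg/kg and Ptgir at 6 mg/kg are the intervals that leave out 0, and neither passed adjustment in these 2 comparisons (adjusted p = 0.334 and 0.592, edgeR).

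The blood-derived cells that carry HPGDS elsewhere showed no called change, and here the limits were wide. Of 9 mast cell markers tested, 0 were called, the median log2 fold change was -0.31 (2 mg/kg) and 0.47 (6 mg/kg) against vehicle, while a 2-fold difference was excluded for 2 and 3 of them. Gata2, a transcription factor of the lineage, was nominally lower at 2 mg/kg (-0.74 ± 0.29, adjusted p = 0.426). Cpa3, a mast cell protease, averaged 7.94 ± 6.17, 6.72 ± 7.98 and 16.1 ± 8.98 CPM (SD, n = 5 each). The 18 macrophage and monocyte markers had medians of -0.03 and -0.23 with 0 nominally different at either dose, and a 2-fold difference was excluded for 10 and 7. Their summed share was 0.258 to 1.41% at 0 mg/kg, 0.328 to 1.002% at 2 mg/kg and 0.269 to 0.874% at 6 mg/kg, so that the spread within the vehicle group was larger than the difference between groups. Cd68, a lysosomal macrophage protein, had 0.999-fold of the vehicle level at 2 mg/kg (95% interval 0.434 to 2.3) and 0.63-fold at 6 mg/kg (0.273 to 1.45). Mrc1, the mannose receptor, had log2 fold changes of -0.04 and 0.41. Neutrophil markers (4 tested) and T and B cell markers (8 tested) had 0 nominally different.

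Of 13 inflammatory cytokines and chemokines, 0 were nominally different at either dose, although 10 and 11 of them had values below vehicle and the medians were -0.47 and -0.56. Single tendons moved this: at 6 mg/kg 5 were nominally lower without 6 mg/kg replicate 5 (median -0.82), 4 without vehicle replicate 1, and 1 without vehicle replicate 3 or 4 or 2 mg/kg replicate 2 or 3. At 2 mg/kg 2 were lower without vehicle replicate 1 or 2 mg/kg replicate 5, and 1 without vehicle replicate 3 or 4, 2 mg/kg replicate 2 or 3, or 6 mg/kg replicate 2. Without vehicle replicate 2 none were and the medians were -0.05 and -0.19. The share of all genes nominally lower in each of these refits is not given here, so the counts have no baseline. Il1b, encoding interleukin-1 beta, averaged 13.5 ± 8.41, 8.34 ± 4.26 and 9.37 ± 2.10 CPM (SD, n = 5 each), and the vehicle mean was raised by replicate 2 at 28.2 CPM, the same tendon that held the highest macrophage share. Ccl2, a monocyte chemokine, averaged 144 ± 38.1, 104 ± 21.9 and 115 ± 39.9 CPM. A 2-fold difference was excluded for 4 of the 13 at 2 mg/kg and 3 at 6 mg/kg, so a moderate fall of these genes was not detectable at this spread.

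The scar matrix list centred near vehicle but was bounded at 2-fold rather than at 1.5-fold. The 21 fibrillar collagens and associated matrix genes had median log2 fold changes of 0.16 with the 2 mg/kg dose and 0.03 with the 6 mg/kg dose, and a 2-fold difference was excluded for 17 and 19 of them, a 1.5-fold difference for 5 and 7. With every tendon in the fit the 2 doses had 0 and 1 nominally higher genes, where 4.08% and 4.30% of all genes were. Without vehicle replicate 3 they had 6 and 4. Without vehicle replicate 4 there were 2 nominally higher at 2 mg/kg. The share of all genes nominally higher in these refits is not given here, so their counts have no baseline. Col1a1 averaged 27204 ± 7390, 30311 ± 7531 and 25876 ± 4537 CPM (SD, n = 5 each), 1.11-fold of vehicle at 2 mg/kg (0.797 to 1.56) and 0.951-fold at 6 mg/kg (0.681 to 1.33). Col3a1, the collagen of young scar, had log2 fold changes of 0.36 and 0.20. The nominally lower genes at 2 mg/kg were Col12a1, a fibril-associated collagen (-0.73 ± 0.29), and Postn, periostin (-0.61 ± 0.21), at adjusted p of 0.431 and 0.397. The decorin gene Dcn was nominally higher at 6 mg/kg (0.29 ± 0.13, adjusted p = 0.636). All 8 basement membrane genes and all 20 genes of protein folding in the endoplasmic reticulum left out 2-fold at both doses. Among 16 matrix proteases and inhibitors, 2 mg/kg left 1 nominally higher and 1 lower, where 4.08% and 5.64% of all genes were. At 6 mg/kg 0 were nominally different, and a 2-fold difference was excluded for 10 and 11 at the 2 doses.

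Of 12 tendon and tenogenesis markers, 3 were nominally lower with the 2 mg/kg dose (5.64% of all genes were) and 1 with 6 mg/kg (3.46%), and 0 were called. Scx, the scleraxis gene that specifies tendon progenitors, measured 48.2, 27.2, 38.6, 21.8 and 27.8 CPM at 0 mg/kg, 27, 14.0, 22.7, 15.3 and 23.7 CPM at 2 mg/kg, and 23.0, 30, 20.0, 16 and 18.3 CPM at 6 mg/kg. Against vehicle it had -0.67 ± 0.24 and -0.61 ± 0.24 on the log2 scale (adjusted p = 0.404 and 0.615), and the groups overlapped. Tnmd measured 233, 172, 271, 92.1 and 137 CPM at 0 mg/kg, 110, 71.4, 87.4, 68.9 and 103 CPM at 2 mg/kg, and 121, 123, 322, 78.8 and 135 CPM at 6 mg/kg. It was low in all 5 tendons at 2 mg/kg (-1.04 ± 0.35, adjusted p = 0.385), overlapping the lowest vehicle tendon, and not at 6 mg/kg (-0.22 ± 0.35). Mcam, a surface protein of pericytes, was the other nominally lower gene (-0.99 ± 0.27, adjusted p = 0.333).

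Several marker lists lay wholly below vehicle at 2 mg/kg: adipocyte (12 genes), endothelial (10), skeletal muscle (29), erythroid (6) and neutrophil (4). Fat and vessel markers, described here, had 9 nominally lower genes each, and muscle had 0, and the lists were not tested against each other. All 12 adipocyte markers had values below vehicle, with a median log2 fold change of -1.67 where that of all genes was -0.02, and 9 of the 12 were nominally lower against 5.64% of all genes. None passed adjustment in edgeR, the smallest adjusted p being 0.333, and DESeq2 called 2 of the 12, among them Adipoq (adjusted p = 0.034). Their summed share was 0.297, 0.233, 0.251, 0.228 and 0.424% in the vehicle tendons. In the 2 mg/kg tendons it was 0.129, 0.171, 0.0603, 0.175 and 0.131%, and with 6 mg/kg it was 0.258, 0.189, 0.162, 0.188 and 0.126%. The summed shares of the 2 mg/kg tendons did not overlap those of the vehicle tendons, and the 6 mg/kg shares overlapped both. Single genes did overlap, among them Adipoq (lowest vehicle tendon 48.0 CPM, highest 2 mg/kg tendon 57.2 CPM), Plin1 (12.1 and 23.3 CPM) and Scd (51.8 and 213 CPM). Retn barely separated (10.28 and 10.25 CPM). Abundant members weighed most in the sum, such as Car3 at 2349 CPM in vehicle replicate 5 and Lpl at 1208 CPM in vehicle replicate 2. Adipoq, encoding adiponectin, averaged 102 ± 41.1, 32.1 ± 20.0 and 55.8 ± 24.7 CPM (SD, n = 5 each), with -1.67 ± 0.44 at 2 mg/kg. Retn, the resistin gene, had -1.93 ± 0.47 and Plin1, the lipid droplet coat protein perilipin 1, had -1.73 ± 0.56. Car3, a carbonic anhydrase counted in this list, is also abundant in slow muscle fibres. At 6 mg/kg 0 of the 12 were nominally different and the median was -0.67. Leaving out each tendon in turn gave 7 to 10 nominally lower genes at 2 mg/kg, without the share of all genes in those refits. In the separate 7-day tendons the same list had a median of 0.76 at 2 mg/kg, with 3 nominally higher, 0 lower and 0 called. The nominal share of all genes at 7 days is not given here.

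All 10 endothelial markers were likewise below vehicle at 2 mg/kg (median -0.74), and 9 of the 10 were nominally lower against 5.64% of all genes, with 0 called in edgeR and 1 in DESeq2. Kdr, the VEGF receptor 2, measured 92.4, 42.6, 46.2, 32.5 and 47.4 CPM at 0 mg/kg, 22.4, 16.8, 27.2, 17.7 and 33.2 CPM at 2 mg/kg, and 51.8, 40.5, 29.6, 29.2 and 38.5 CPM at 6 mg/kg. Vehicle replicate 1 was high and 1 tendon at 2 mg/kg reached the lowest vehicle value, with a log2 fold change of -1.16 ± 0.27 (adjusted p = 0.333). Cdh5, the endothelial cadherin, had -0.79 ± 0.28 and Eng, endoglin, -0.42 ± 0.17. Without vehicle replicate 1, which held the highest endothelial share (0.151% where the other 4 held 0.0750 to 0.0879%), 2 of the 10 were nominally lower and the median was -0.45. At 6 mg/kg the median was -0.18 with 0 nominally different. At 7 days the median at 2 mg/kg was -0.43, with 6 of 10 nominally lower and 0 called, where 3.45% of all genes were called. The nominal share of all genes at 7 days is not given here, so the 6 of 10 has no baseline. Of 8 myofibroblast and smooth muscle markers, 2 were nominally lower at 2 mg/kg: the pericyte gene Rgs5 (-1.05 ± 0.31) and the smooth muscle gene Tagln (-0.74 ± 0.24). The median of that list was -0.37, and 2 of the 8 had values above vehicle, among them Cspg4 at 1.07-fold (0.778 to 1.48). The 6 erythroid markers had a median of -0.88. With the log2 muscle share as a covariate, 10 of 12 adipocyte and 9 of 10 endothelial markers were nominally lower. The share of all genes nominally lower in that fit, or without vehicle replicate 1, is not given here, so these counts have no baseline. Whether the amount of fat and vessel in the dissected tissue differed between groups was not tested.

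The smallest p-values at 6 mg/kg included Cmc1 and Dek, which did not differ nominally at 2 mg/kg. Cmc1, a small protein of cytochrome oxidase assembly, measured 28.3, 18.0, 17.6, 19.7 and 21.9 CPM at 0 mg/kg, 30.3, 28.6, 24.0, 21.5 and 17.3 CPM at 2 mg/kg, and 29.1, 38.7, 52.0, 45.8 and 41.6 CPM at 6 mg/kg. Every 6 mg/kg tendon was above every vehicle tendon, at 1.96-fold (1.5 to 2.57, adjusted p = 0.541 in edgeR and 0.00112 in DESeq2), while 1 of them lay within the 2 mg/kg range. Dek, a chromatin protein, measured 102, 101, 103, 98.2 and 104 CPM at 0 mg/kg, 105, 96.3, 108, 99.6 and 101 CPM at 2 mg/kg, and 130, 122, 126, 114 and 118 CPM at 6 mg/kg. The 5 tendons at 6 mg/kg were all above the other 10, at 1.20-fold of vehicle (1.11 to 1.30, adjusted p = 0.541 in edgeR and 0.000739 in DESeq2). In the 7-day tendons the log2 fold change at 6 mg/kg was -0.04 ± 0.25 for Cmc1 and 0.18 ± 0.11 for Dek.

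RGD1311744, a gene known by its rat locus name, was higher at both doses, with 9.69, 23.6, 10.03, 7.59 and 8.07 CPM at 0 mg/kg, 27.8, 21.0, 48.9, 22.6 and 32.3 CPM at 2 mg/kg, and 29.1, 46.9, 29.7, 57.4 and 31.4 CPM at 6 mg/kg. Without vehicle replicate 2, the lone high vehicle tendon, it passed at 6 mg/kg in edgeR (log2 fold change 2.14, adjusted p = 0.0354), and with all 15 tendons it missed in edgeR (1.72 ± 0.33, adjusted p = 0.541) and passed in DESeq2 (adjusted p = 0.000739 at 6 mg/kg, 0.0198 at 2 mg/kg and 0.00252 for the trend). At 7 days the values ran the other way, -0.26 ± 0.46 and -0.56 ± 0.50. Of the genes lower at 6 mg/kg, Ccnd1, encoding the G1 cyclin D1, measured 168, 161, 131, 129 and 121 CPM at 0 mg/kg, 115, 142, 100, 117 and 108 CPM at 2 mg/kg, and 111, 84.6, 98.6, 83.1 and 109 CPM at 6 mg/kg. No 6 mg/kg tendon reached the vehicle range (-0.55 ± 0.12, adjusted p = 0.592 in edgeR and 0.0124 in DESeq2). The helicase gene Dhx16 (-0.33 ± 0.06) and Rrp9, a component of ribosomal RNA processing (-0.30 ± 0.06), were lower in all 5 tendons at 6 mg/kg than in any vehicle tendon, and DESeq2 called both (adjusted p = 0.00118 each). The remaining 27 of 28 cell cycle genes tested were not nominally different at 6 mg/kg, and all 28 left out 2-fold at both doses.

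The leading genes of the 2 mg/kg comparison other than Jund were Cryl1 and Slc35c2, with values above vehicle, and Rapgef5 and Itga1, with values below it, and DESeq2 called all 4 (adjusted p = 0.0012, 0.00271, 0.000799 and 0.00271). Cryl1, a crystallin-related sugar dehydrogenase, measured 18.8, 24.2, 19.7, 28.6 and 19.8 CPM at 0 mg/kg, 33.1, 34.1, 31.6, 36.0 and 34.7 CPM at 2 mg/kg, and 24.4, 22.3, 27.1, 28.9 and 29.0 CPM at 6 mg/kg. The 2 mg/kg tendons were above the other 10, at 1.53-fold of vehicle (1.29 to 1.81, adjusted p = 0.283), and the gene passed without vehicle replicate 4 (adjusted p = 0.0303). At 7 days Cryl1 was called at 2 mg/kg, 0.84 ± 0.17 on the log2 scale (adjusted p = 0.0168). Rapgef5, an exchange factor for Rap GTPases, measured 31.8, 24.9, 29.6, 24.4 and 21.5 CPM at 0 mg/kg, 18.3, 15.8, 12.8, 13.4 and 15.4 CPM at 2 mg/kg, and 22.9, 27.6, 28, 19.1 and 20.2 CPM at 6 mg/kg, with no overlap between the first 2 groups (-0.81 ± 0.14, adjusted p = 0.204). Itga1, the collagen-binding integrin alpha 1 chain, had -1.09 ± 0.21 at 21 days (adjusted p = 0.333) and -0.93 ± 0.32 at 7 days.

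**Figure D4:**
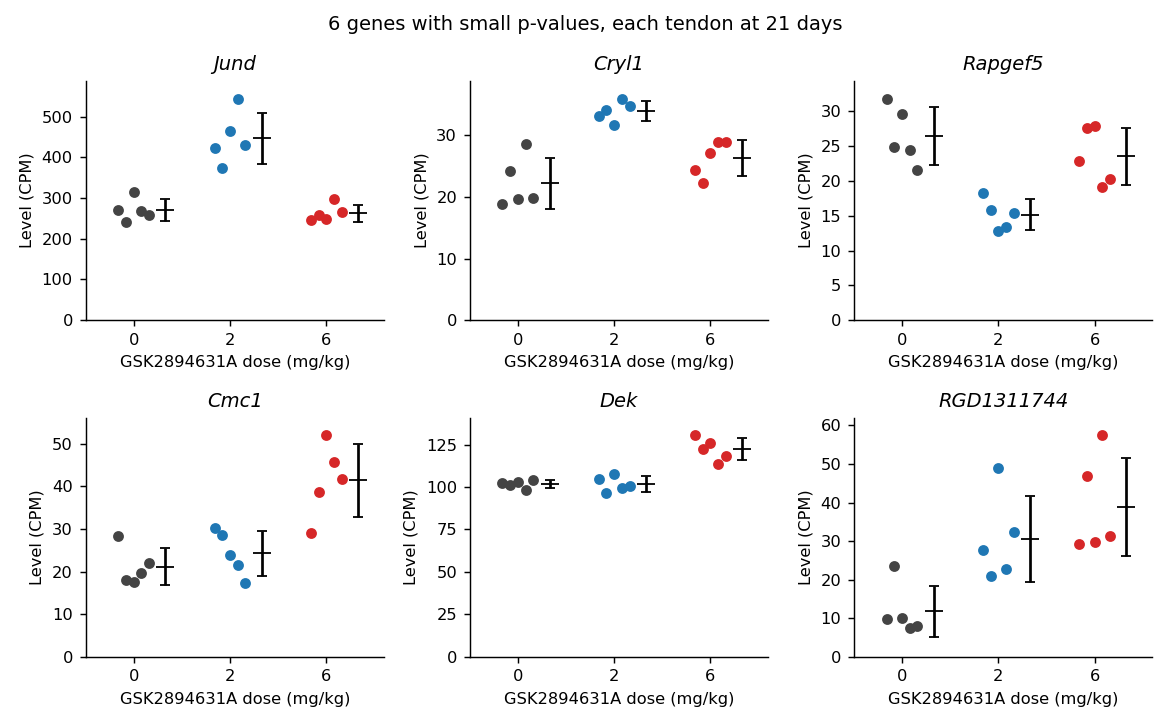
CPM of 6 genes (vertical axes, from 0) in each tendon by dose; points are tendons, and the bar to the right of each group is its mean and SD (n = 5). Jund, Cryl1 and Rapgef5 separate the 2 mg/kg tendons from vehicle, Cmc1 and Dek separate the 6 mg/kg tendons, and RGD1311744 has 1 high vehicle tendon at 23.6 CPM.

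Of the housekeeping lists at 6 mg/kg, ribosomal protein and proteasome genes had more nominally higher members than the 4.30% of all genes. Both counts depended on single tendons, and the ribosomal count also on the scaling, and the share of all genes in each refit is not given here. Of 59 cytosolic ribosomal protein genes, 53 had values above vehicle (median 0.21), and 11 were nominally higher and 1 lower against 4.30% and 3.46% of all genes. These genes have many near-identical processed copies, between which counting may split reads. The count ran from 2 to 20 as each tendon was left out, with 2 without 6 mg/kg replicate 3, 3 without vehicle replicate 2 or 6 mg/kg replicate 1, 4 without vehicle replicate 3, 6 without vehicle replicate 4 or 6 mg/kg replicate 5, 7 without 2 mg/kg replicates 1, 3 or 5, and 20 without vehicle replicate 1 or 6 mg/kg replicate 4. It was also 2 with library size as the only scaling. Of 36 proteasome subunits 4 were nominally higher at 6 mg/kg, against 4.30% of all genes, with a median of 0.02. That count ran from 0 to 7 as each tendon was left out. Of 71 nuclear respiratory chain genes 1 was nominally higher (0 to 6 as each tendon was left out), with a median of 0.16. At 2 mg/kg the medians of these 3 lists were 0.03, -0.04 and -0.22. A 2-fold difference was excluded at 6 mg/kg for 52 of 59, 35 of 36 and 67 of 71 of them.

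Immediate early genes, to which Jund belongs, had 3 of 21 nominally higher at 2 mg/kg against 4.08% of all genes: Jund and the Kruppel-like factors Klf2 (0.43 ± 0.16) and Klf4 (0.33 ± 0.12). At 6 mg/kg 1 of the 21 was nominally lower, Ier2 (-0.39 ± 0.11, adjusted p = 0.592), where 3.46% of all genes were. In the separate 7-day tendons Ier2 was called lower at 6 mg/kg (-0.88 ± 0.11, adjusted p = 0.00127), where 1.18% of all genes were called. Junb was called there too (-0.71 ± 0.12, adjusted p = 0.0102), and at 21 days it had -0.39 at 6 mg/kg (adjusted p = 0.687). Of 16 clock genes, Per2 was nominally higher and Arntl and Clock lower at 2 mg/kg, and Per1 was higher at 6 mg/kg, with 0 called. Among 13 growth factors tested, Ctgf, a matricellular target of mechanical load, was nominally higher at 6 mg/kg (0.77 ± 0.25, adjusted p = 0.592) and Pdgfa lower (-0.34 ± 0.12). At 2 mg/kg 1 of the 13 was nominally lower. Of 14 interferon response genes 1 was nominally lower at 2 mg/kg and 1 nominally higher at 6 mg/kg. Of 10 xenobiotic and glutathione genes 0 were nominally different at either dose.

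Where the muscle share varied most, little could be excluded. The 29 skeletal muscle genes had a median log2 fold change of -0.84 at 2 mg/kg and 0.38 at 6 mg/kg, with 0 nominally different. The interval reached a median of 4.28-fold to either side, and a 2-fold difference was excluded for 0 of the 29 at either dose. Adipocyte markers (0 of 12 at 2 mg/kg), neutrophil markers (0 of 4) and erythroid markers (0 of 6) were the other lists in which no gene left out 2-fold at that dose. Cartilage markers (7 tested), bone and osteoclast markers (7), Schwann cell and nerve markers (7) and skin and epithelial markers (3) had 0 called, and among them Acan, the aggrecan gene, was nominally lower at 6 mg/kg (-1.07 ± 0.48, adjusted p = 0.639). Pmp22, of the Schwann cell list, was nominally higher at 2 mg/kg (1.19-fold, 1.01 to 1.41, adjusted p = 0.492). In the 7-day tendons Pmp22 was called at 2 mg/kg (0.58 ± 0.12, adjusted p = 0.0177).

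**Figure D5:**
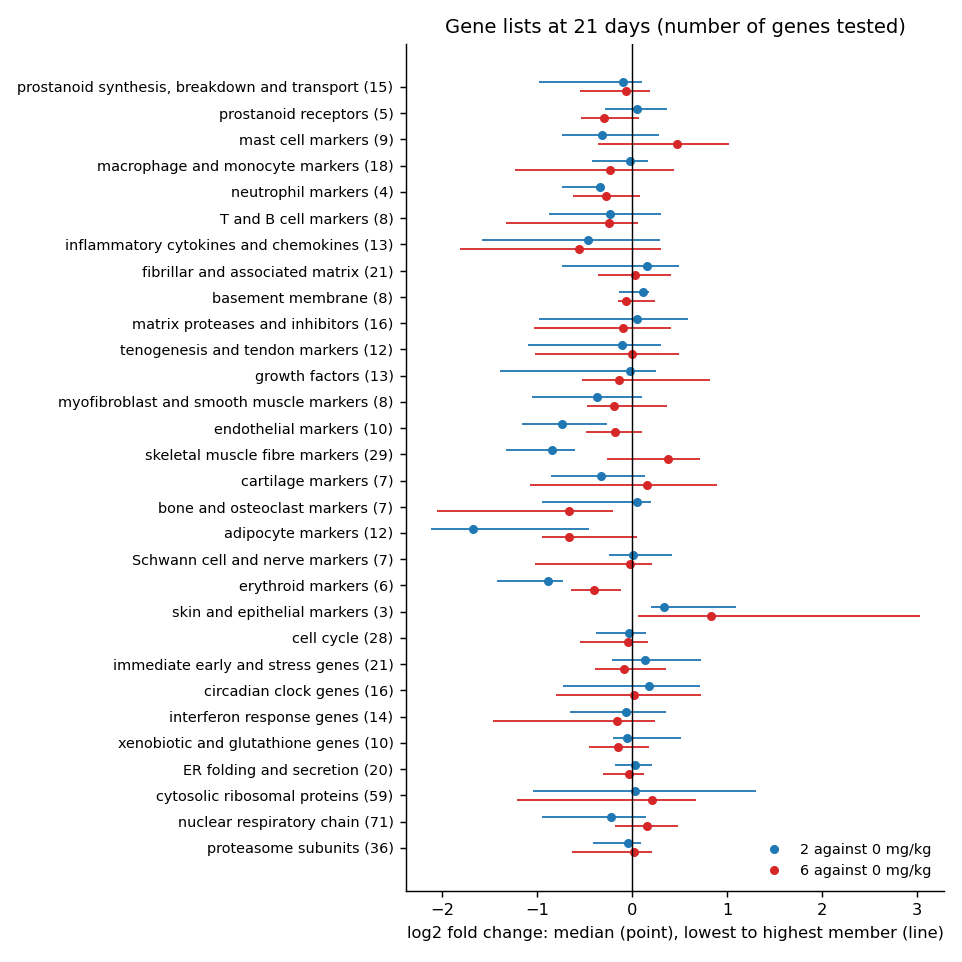
Log2 fold change at 2 mg/kg and 6 mg/kg against vehicle for the members of 30 gene lists (number of genes tested in brackets); points are medians and lines run from the lowest to the highest member. Adipocyte, erythroid, muscle, endothelial and neutrophil lists lie wholly below 0 at 2 mg/kg (medians -1.67, -0.88, -0.84, -0.74 and -0.34), and the ER folding and cell cycle lists span narrow ranges around 0.

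The 12 repaired tendons of the 7-day time point (5, 4 and 3 at 0, 2 and 6 mg/kg) were fitted separately. There 419 genes (3.45%) were called for 2 against 0 mg/kg and 143 (1.18%) for 6 against 0 mg/kg, of which 26 and 22 were on the muscle list. The muscle share at 7 days was 0.267 to 1.51% at 0 mg/kg and 0.0432 to 0.0766% in the dosed tendons, and its part in those calls was not tested. At 21 days 0 of these genes were called. For 2 mg/kg, 350 of the 390 that were tested at 21 days had the same sign. In either direction 56 of the 390 were nominally different, 53 of them with the same sign, where 9.72% of all genes were. The median of the lower genes went from -2.42 at 7 days to -0.69 at 21 days. For 6 mg/kg, 18 of 142 had the same sign, and the median went from -5.10 to 0.36. Of these 142, 2 were nominally different, where 7.76% of all genes were. The share of all genes with the same sign at both times is not given here, so the sign counts have no baseline. Because the sizes at 7 days were those of called genes, they are a selected set. They lay outside the 21-day interval for 291 of 390 genes at 2 mg/kg and 138 of 142 at 6 mg/kg. A direct test of the difference between time points over 27 tendons called 6 of 12377 genes (0.0485%) for 2 mg/kg and 0 (0%) for 6 mg/kg, with 1637 and 477 nominally different.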

How the data were processed

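Adult rat plantaris tendons were sequenced (Illumina, 50 bp single-end reads, RIN above 8). Raw counts per gene were deposited; the authors trimmed reads with fastp, aligned them with STAR to rn6 and counted reads in exons of Ensembl release 95. Whether counting used strand is not given in the sources used here. A deposited table of the authors' edgeR comparisons (log2 fold changes, p-values and FDR) was not used beyond its gene names, chromosomes and gene widths in bases.

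Counts of the 15 tendons at 21 days were fitted in R 4.3.3 with edgeR 4.0.16 (TMM, quasi-likelihood, 1 mean per dose), keeping genes with a mean of 3 CPM in at least 1 group. Contrasts were 2 against 0 mg/kg, 6 against 0 mg/kg, the linear trend over 0, 2 and 6 mg/kg and any difference. Intervals used the fit's standard error and a t quantile on 14.2 degrees of freedom. The script was tested on simulated data. Alternatives were DESeq2 1.42.0, limma-trend (limma 3.58.1), other scalings, filters and samples, the muscle share as covariate and leaving out each tendon. Named genes were every measured prostanoid gene, up to 3 of each other list by trend p plus genes the study discussed, the 4 smallest p-values in each direction per comparison at 10 CPM or more, and called genes. Other genes of a list (such as Col12a1, Postn, Retn, Kdr, Klf2 and Clock) and the genes under an adjusted p of 0.1 between the doses were named after their values were seen. Groups, lists and named genes were chosen with earlier results of these data known. Tendons come from separate rats as far as the labels and methods state. The smallest chi-square per gene between tendons of a group was 44.4, so none were duplicates. Intervals include the spread between tendons, while the floor of 3 counts covers counting error only.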

Additional observations from a re-analysis of the deposited data

Results flagged for a closer look

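Of 75 groups of 5 tendons checked (total counts, the first component, the 4 marker shares of muscle, fat, endothelium and macrophages, and 19 genes), 7 held 1 tendon far from its group, where chance gives about 1 in 20. At 0 mg/kg, replicate 2 had a first component score of -85.1, and RGD1311744 at 23.6 CPM in the same tendon, against 7.59 to 10.03 CPM in the others. Replicate 1 of that group held an endothelial share of 0.151% and Kdr at 92.4 CPM, against 32.5 to 47.4 CPM in the others. At 2 mg/kg, Ptgs1 reached 67.7 CPM in replicate 3 and Ptges was at 13.3 CPM in replicate 2. At 6 mg/kg, Tnmd reached 322 CPM in replicate 3.

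The difference between 2 and 0 mg/kg was not the same at 21 and 7 days for 6 genes (log2, 21 minus 7 days, edgeR test of that difference). Positive were Igfn1, a muscle filament protein (8.84, adjusted p = 0.0444), Myh4, the fast myosin heavy chain (7.74, adjusted p = 0.0478), and Zfp57 (2.86, adjusted p = 0.0444). Negative were Akr1c14, a hydroxysteroid dehydrogenase (-1.97, adjusted p = 0.0444), Dpep1 (-2.85, adjusted p = 0.0444) and Wif1, a Wnt inhibitor (-2.06, adjusted p = 0.0478). At 7 days Igfn1 and Myh4 had log2 fold changes of -8.09 and -8.68, at 21 days 0.72 and -0.92. The muscle share at 7 days was 0.267 to 1.51% at 0 mg/kg and 0.0432 to 0.0464% at 2 mg/kg, and its part in these values was not tested. Dpep1 was not among the genes tested in the 21-day fit.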

How the results depend on the processing

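Calls against vehicle stayed at 0 under RLE scaling, library size only, both other filters, all 30 tendons, limma-trend and the muscle covariate. DESeq2 moved them to 59 (2 mg/kg), 27 (6 mg/kg), 49 (trend), 277 (any difference) and 314 (6 against 2 mg/kg). The cause of that difference was not tested. The any-difference and 6 against 2 mg/kg counts went from 1 to 0 with all 30 tendons, and the latter to 94 with the muscle covariate. Leaving out 1 tendon gave 0 to 2 genes for 2 mg/kg, 0 to 1 for 6 mg/kg, 0 to 5 for any difference and 0 to 18 between the doses, the 18 without vehicle replicate 3. Calls for 2 mg/kg appeared without vehicle replicate 3 (AC103221.1 and Jund), vehicle replicate 4 (Cryl1) or 2 mg/kg replicate 2 (Jund), and the call for 6 mg/kg without vehicle replicate 2 (RGD1311744). Between the doses 3 genes were called without vehicle replicate 2 and 2 without vehicle replicate 5. Genes leaving out 2-fold stayed within 1.5 times the main count throughout. With main counts of 86.0% and 87.0% of genes, only a large fall could have failed that rule. The test between time points moved from 6 to 28 (all 30 tendons), 11 (RLE) and 1404 genes (muscle covariate) for 2 mg/kg, and from 0 to 30 and 64 (all 30 tendons, muscle covariate) for 6 mg/kg. Replicate numbers did not pair the tendons: same-number correlations ran from -0.73 to 0.71, and 4 of 15 tendons matched their own number best. A replicate block gave 0 genes for any difference and 0 for 6 against 2 mg/kg, and changed no other call. With 5 tendons a group, 1.5-fold lay outside the interval for 66.5% and 67.4% of genes, and 2-fold for 70.7% and 74.3% of those under 10 CPM, where counts are fewest.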
